A study of Homo sapiens with 6 samples.

Results

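The expression of 10 genes that the transcription factor p53 activates directly was compared between Caki2 cells with and without PBRM1. The genes were MDM2, DDB2, XPC, RRM2B, SESN1, SESN2, TP53I3, ZMAT3, TP53INP1 and GDF15. They were chosen by symbol, as known p53 targets other than CDKN1A and the BCL2 family, with earlier results of these data known. All 10 were found among the 25369 genes of the files. Caki2 is a clear cell renal carcinoma cell line that lacks PBRM1 protein. RNA-Seq covered 3 replicates with an empty doxycycline-inducible lentiviral vector (Caki2+Vector) and 3 in which that vector held PBRM1 (Caki2+PBRM1), lettered A to C in both. Doxycycline was given at 2 µg/ml. The control and PBRM1 lines were transduced and selected separately, so PBRM1 expression and any other difference between the lines cannot be told apart. Neither p53 protein nor its binding to DNA was measured in these files.

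p53 is held at a low level in unstressed cells by MDM2, the ubiquitin ligase that marks it for degradation and is itself a p53 target. When DNA damage, nucleotide shortage or other stress stabilises p53, it binds paired decamers in its target genes and raises their transcription. The products arrest the cell cycle, repair DNA, supply nucleotides, restrain growth signalling and, in some settings, kill the cell. Many of these genes also answer to other factors, among them ATF4 and the FOXO proteins.

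The p53 binding motif consists of a pair of 10 bp decamers, and pairs lying side by side were searched for within 5000 bp of the start of each gene's canonical transcript on GRCh37, the assembly behind hg19. All 4 core C and G bases had to be present and up to 2 other bases could differ from the consensus, which reads the same on both strands. Such a pair was found in 5 of the 10 genes, beside 7.6% of the 12100 tested genes whose start could be placed. With up to 3 mismatches 42.3% of genes held a match, and 9 of the 10 genes did. The 10 genes were listed because they are known p53 targets, so these shares describe the list and are no test of it. Of the pairs with up to 2 mismatches, those of DDB2, GDF15, MDM2 and ZMAT3 are shown. Each is printed on the strand of its gene with 5 bp on either side, and capitals mark the 20 bp pair.
MDM2, intron 1, chr12:69202698-69202727, plus strand, 2 mismatches: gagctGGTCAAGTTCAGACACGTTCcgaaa
DDB2, first exon, chr11:47236515-47236544, plus strand, 1 mismatch: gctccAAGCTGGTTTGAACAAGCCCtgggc
GDF15, before the canonical start and inside the span of longer transcripts, chr19:18496113-18496142, plus strand, 2 mismatches: attgcCATCTTGCCCAGACTTGTCTcgaac
ZMAT3, intron 1, chr3:178787971-178788000, minus strand, 0 mismatches: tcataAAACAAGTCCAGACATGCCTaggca
The middle of the pair lay 756 bp after the start of MDM2, 4 bp after that of DDB2, 840 bp before that of GDF15 (distance -840) and 1612 bp after that of ZMAT3. The 20 bp pair of DDB2 thus spans the canonical start, and its first bases lie before the first exon of that transcript. RRM2B had a pair with 1 mismatch in intron 1, 2112 bp after its start, which is not printed. No such pair was in the windows of XPC, SESN1, SESN2, TP53I3 and TP53INP1, which says only that these letters are not there. A match of letters is not a bound site.

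The values are normalized counts, in which reads were scaled by a factor per sample but not by gene length, and they rest on 7312955 to 10835355 reads per sample. PBRM1, the gene under test, ranged from 182.2 to 195.0 normalized counts with the empty vector and from 2431.7 to 2682.4 with the PBRM1 vector, and reads of the endogenous gene and of the construct were not separated. Of 12 renal epithelial markers 10 were expressed, among them PAX8, while CDH1 and CA9 were below the filter on low counts. Of 12 markers of other cell types, ALB, CD3E and CDH5 were at 0 in every sample and 4 passed the filter. The sum over these markers ranged from 2233.2 to 2397.8 normalized counts with the empty vector and from 2136.0 to 2203.4 with PBRM1, of which CD68 made up most, and its part in the results was not tested. Caki2+Vector A stood apart from the other Caki2+Vector replicates, with a chi-square per degree of freedom of 3.09 and 2.84 against B and C. The value was 1.34 between B and C and 1.19 to 1.22 within Caki2+PBRM1. This measure sets differences between replicates against read sampling alone, and within Caki2+PBRM1 they were not far above it. Values without Caki2+Vector A are given where it moved a result. The study calls its replicates biological, but the labels do not say whether they came from separate cultures, so p-values cover the spread between these samples only.

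Of the 10 genes, 5 were upregulated in Caki2+PBRM1 (ZMAT3, TP53INP1, GDF15, RRM2B and TP53I3), 2 were downregulated (DDB2 and SESN2), and 3 did not pass the threshold (MDM2, SESN1 and XPC). All 10 passed the filter of at least 10 normalized counts in at least 3 samples. In bulk RNA a lower level in each cell and fewer expressing cells cannot be told apart. Calls come from limma, fitted to log2(normalized count + 1) of 13303 genes, with an adjusted p (Benjamini-Hochberg) under 0.05 as the threshold, and every fold change below is on that scale. Over all tested genes 16.2% were upregulated, 13.0% downregulated and 29.2% passed in either direction. Of the 10 genes, 5 had a positive log2 fold change and 5 a negative one. Their median of 0.22 lay in the gap between MDM2 (-0.02) and TP53I3 (0.46), where no member was, and the median of all tested genes was -0.004. The median size of the change, without its sign, was 0.43 for the 10 genes and 0.14 for all tested genes. Since the list was chosen with earlier results of these data known, the comparisons with all tested genes describe it and are no test. In 7 of the 10 genes the replicates of the groups did not overlap, 5 being higher and 2 lower in Caki2+PBRM1, beside 22.1% and 19.6% of all tested genes. For every such gene the exact permutation p was 0.1, the smallest that 3 replicates against 3 can give. Without Caki2+Vector A the counts were again 5 and 2. The 5 genes with a decamer pair held 3 of the upregulated genes (ZMAT3, RRM2B and GDF15), 1 downregulated gene (DDB2) and MDM2, which did not pass.

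**Figure D1:**
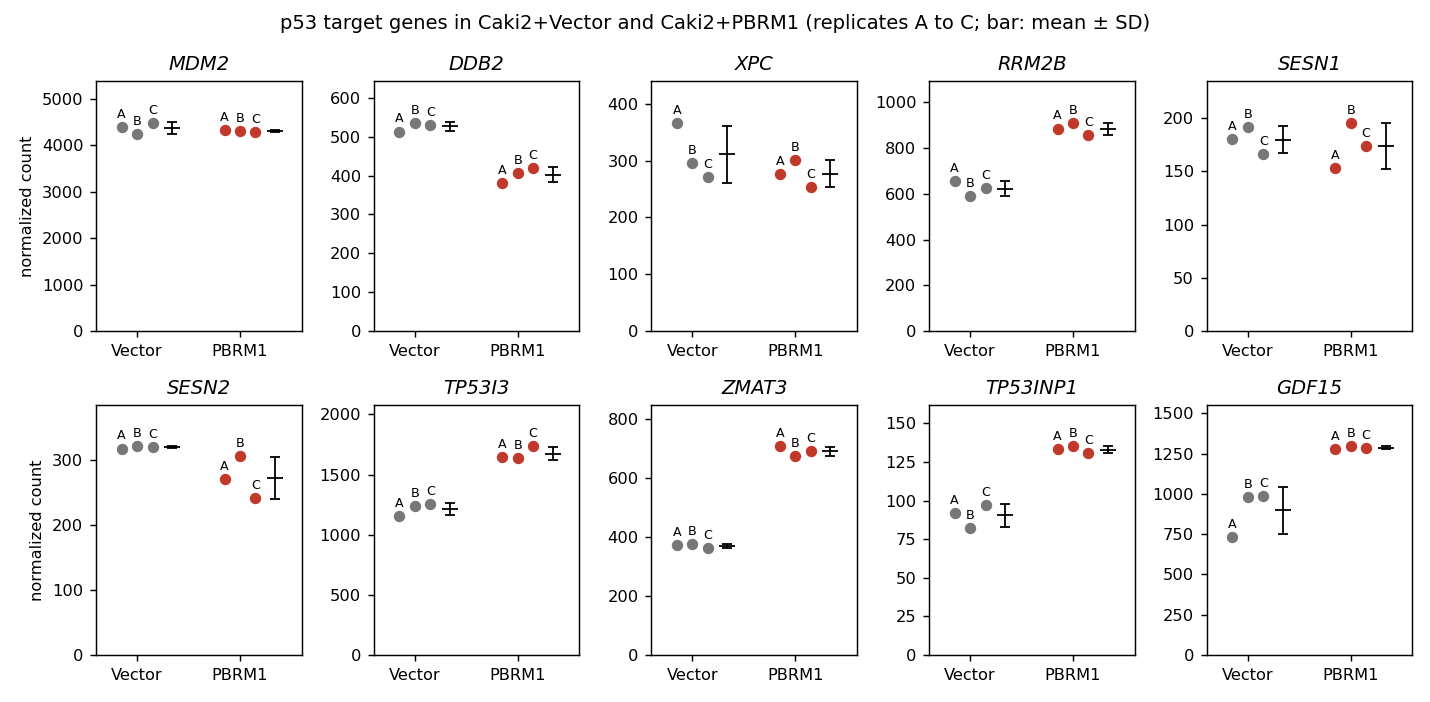
Normalized count of each of the 10 p53 target genes (vertical axis, from 0) in the 3 Caki2+Vector replicates (grey) and the 3 Caki2+PBRM1 replicates (red), with the mean and SD beside the points. ZMAT3 shows the largest fold change, from 363.2 to 375.1 against 674.6 to 706.2, while the groups overlap in MDM2, SESN1 and XPC.

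MDM2 closes the feedback loop on p53 and was the member with the most reads in every sample. It had 4389.8, 4231.6 and 4481.4 normalized counts in Caki2+Vector A, B and C and 4331.6, 4311.7 and 4291.3 in Caki2+PBRM1 A, B and C. The Caki2+PBRM1 values all lay inside the range of the Caki2+Vector values. The log2 fold change was -0.02 (SE 0.036, limma adjusted p = 0.748), with a 95% interval from -0.09 to 0.05. The gene lies on the plus strand of chromosome 12 of GRCh37 (69201957 to 69239324, ENSG00000135679) and shares exonic sequence with CPM on the other strand, and with a lncRNA and a processed pseudogene that were not analysed here. The mean normalized count of CPM was 769.1 ± 38.0 without PBRM1 and 975.5 ± 73.4 with it (SD, n = 3). Whether the counting used strand is not given in the sources used here, so reads of the shared stretch cannot be assigned.

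The 3 genes of DNA repair and nucleotide supply went in different directions. DDB2 encodes the damage-recognition subunit of the UV-damaged DNA-binding complex. It lies on chromosome 11 (47236016 to 47260768, plus strand, ENSG00000134574). Its normalized counts were 513.1, 535.7 and 531.0 in Caki2+Vector and 381.3, 405.3 and 419.6 in Caki2+PBRM1. The 3 values with PBRM1 were all below the 3 values without it. DDB2 fell by 0.39 on the log2 scale (SE 0.063, limma adjusted p = 1.97e-05), to 0.76 of its level in Caki2+Vector. XPC, whose product recognises distorted DNA at the start of nucleotide excision repair and works downstream of DDB2 on UV lesions, had 366.4, 294.8 and 270.9 normalized counts in Caki2+Vector and 276.2, 300.4 and 253.5 in Caki2+PBRM1. The groups overlapped, and the highest value was that of Caki2+Vector A. XPC lies on chromosome 3 (14186647 to 14220121, minus strand, ENSG00000154767) and shares exonic sequence with XPC-AS1 and ENSG00000268279 on the other strand, both not analysed here. The log2 fold change of XPC was -0.16 (SE 0.094, 95% interval -0.35 to 0.04, limma adjusted p = 0.223). It was -0.03 without Caki2+Vector A (limma adjusted p = 0.796) and -0.25 without Caki2+Vector C (limma adjusted p = 0.0483).

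RRM2B encodes p53R2, the small subunit of ribonucleotide reductase that supplies deoxynucleotides outside S phase. It had 654.2, 588.6 and 623.2 normalized counts in Caki2+Vector and 885.0, 910.2 and 858.6 in Caki2+PBRM1. All Caki2+PBRM1 values were above all Caki2+Vector values. RRM2B lies on chromosome 8 (103216730 to 103251189, minus strand, ENSG00000048392). The log2 fold change was 0.51 (SE 0.055, limma adjusted p = 1.98e-08), or 1.42-fold.

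The members that act in redox control and metabolic stress also diverged. TP53I3 encodes a quinone oxidoreductase that takes part in the generation of reactive oxygen species. It lies on chromosome 2 (24300303 to 24308731, minus strand, ENSG00000115129). It had 1155.0, 1235.8 and 1251.3 normalized counts in Caki2+Vector and 1649.7, 1639.0 and 1734.0 in Caki2+PBRM1, without overlap. The log2 fold change was 0.46 (SE 0.046, limma adjusted p = 3.72e-09), or 1.38-fold. TP53I3 shares exonic sequence with FAM228B on the other strand, whose mean normalized count was 43.0 ± 8.6 without PBRM1 and 55.7 ± 1.5 with it (SD, n = 3), far below that of TP53I3.

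The sestrins SESN1 and SESN2 are stress-induced proteins that restrain mTORC1, the kinase complex that drives growth, and SESN2 senses leucine. SESN1 lies on chromosome 6 (109305512 to 109416049, minus strand, ENSG00000080546), where it shares exonic sequence with ENSG00000271730 on the other strand (not analysed here), and SESN2 on chromosome 1 (28586029 to 28609002, plus strand, ENSG00000130766). SESN1 had 179.9, 191.8 and 166.6 normalized counts in Caki2+Vector and 152.7, 195.5 and 173.7 in Caki2+PBRM1. The highest and the lowest value were both in Caki2+PBRM1, and the log2 fold change was -0.05 (SE 0.10, 95% interval -0.25 to 0.16, limma adjusted p = 0.759). SESN2 had 317.1, 320.3 and 318.8 normalized counts in Caki2+Vector and 270.8, 304.9 and 240.9 in Caki2+PBRM1. The Caki2+PBRM1 values were all lower and spread widely, while those of Caki2+Vector were within a few counts of each other. SESN2 fell by 0.23 on the log2 scale (SE 0.081, limma adjusted p = 0.0301). This call was the weakest of the 7. The adjusted p was 0.122 with DESeq2 on the recovered reads, and with limma it was 0.0851 without Caki2+PBRM1 A, 0.244 without Caki2+PBRM1 C (log2 fold change -0.15), 0.0729 without Caki2+Vector B and 0.0573 without Caki2+Vector C.

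**Figure D2:**
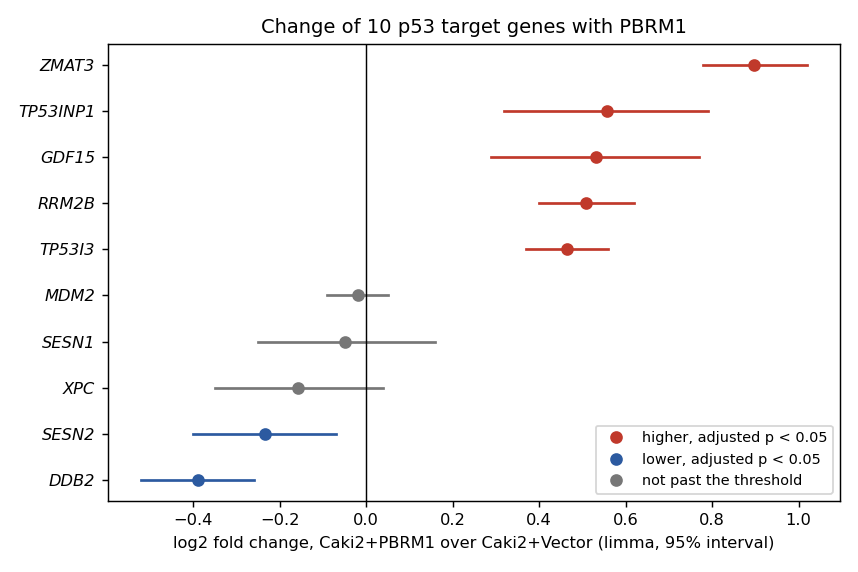
Log2 fold change of the 10 genes in Caki2+PBRM1 over Caki2+Vector from limma (points), with 95% intervals (lines), ordered by value with its sign. Red marks upregulated, blue downregulated and grey genes past no threshold. The intervals of the 5 upregulated genes begin at 0.29 or above, and those of MDM2, SESN1 and XPC span 0.

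ZMAT3 had the largest fold change of the 10. It encodes a zinc-finger RNA-binding protein that acts on the splicing and stability of mRNAs. The gene lies on chromosome 3 (178677909 to 178790003, minus strand, ENSG00000172667). Its normalized counts were 371.1, 375.1 and 363.2 in Caki2+Vector and 706.2, 674.6 and 689.1 in Caki2+PBRM1. The spread within each group was small beside the gap between them. The log2 fold change was 0.90 (SE 0.060, limma adjusted p = 7.24e-13), or 1.86-fold, which placed ZMAT3 at rank 390 of the 13303 tested genes by size of change. TP53INP1, a nuclear protein that promotes phosphorylation of p53 and also acts in autophagy, was the member with the fewest reads. It lies on chromosome 8 (95938200 to 95961606, minus strand, ENSG00000164938). It had 91.8, 82.2 and 97.1 normalized counts in Caki2+Vector and 133.2, 135.1 and 130.9 in Caki2+PBRM1. The groups did not overlap, and the log2 fold change was 0.56 (SE 0.114, limma adjusted p = 3.89e-04), or 1.47-fold. TP53INP1 shares exonic sequence with NDUFAF6 on the other strand, whose mean normalized count was 109.7 in Caki2+Vector and 98.9 in Caki2+PBRM1. The means of TP53INP1 itself were 90.4 and 133.1. As for MDM2, reads of the shared stretch cannot be assigned.

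GDF15 encodes a secreted stress hormone of the TGF-beta superfamily. It lies on chromosome 19 (18485541 to 18499986, plus strand, ENSG00000130513). It had 730.8, 978.8 and 987.6 normalized counts in Caki2+Vector and 1281.4, 1295.0 and 1287.5 in Caki2+PBRM1. The Caki2+PBRM1 replicates were nearly equal, and Caki2+Vector A was the lowest of the 6 samples. The log2 fold change was 0.53 (SE 0.106, limma adjusted p = 0.00562), or 1.45-fold. Without Caki2+Vector A it was 0.39 (limma adjusted p = 2.29e-11).

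To compare the genes with each other, normalized counts were divided by the length of the canonical transcript. Reads were counted on another annotation than the one that gave these lengths, so levels per kb are approximate. In Caki2+Vector, GDF15 (749.2 ± 121.5 per kb, SD, n = 3) and TP53I3 (734.4 ± 31.3 per kb) were highest and did not differ beyond their spread. MDM2 followed with 583.1 ± 16.9 per kb, still below every replicate of both. DDB2 (290.1 ± 6.6 per kb) and RRM2B (130.3 ± 6.9 per kb) were lower, without overlap between them. SESN2 (92.1 ± 0.5 per kb) and XPC (85.1 ± 13.6 per kb) did not differ beyond their spread, and ZMAT3 (41.4 ± 0.7 per kb), SESN1 (31.7 ± 2.2 per kb) and TP53INP1 (16.1 ± 1.3 per kb) were lowest. In Caki2+PBRM1 the order was the same but for ZMAT3, whose 77.2 ± 1.8 per kb lay among those of SESN2 (78.6 ± 9.2 per kb) and XPC (75.8 ± 6.4 per kb). DDB2 and RRM2B drew closer in Caki2+PBRM1, with levels of 221.5 ± 10.7 and 185.3 ± 5.4 per kb.

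**Figure D3:**
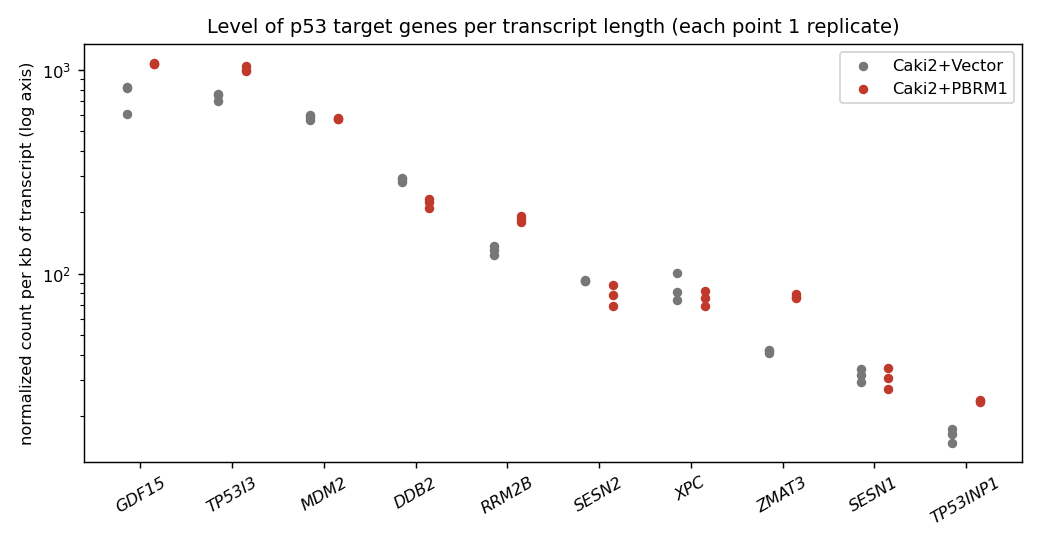
Normalized count per kb of canonical transcript (vertical log axis) for each of the 10 genes, with 1 point per replicate of Caki2+Vector (grey) and Caki2+PBRM1 (red). GDF15 and TP53I3 lead in both groups, and ZMAT3 moves from 41.4 to 77.2 per kb on average, level with SESN2 and XPC.

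MDM4, the partner of MDM2 in restraining p53, overlapped between the groups with a log2 fold change of -0.10 (SE 0.078, limma adjusted p = 0.365). Of 27 genes listed as p53 and its regulators, 25 were tested. Of these, 3 were upregulated and 2 downregulated, beside 16.2% and 13.0% of all tested genes. Their median log2 fold change was 0.01. HIPK2, a kinase that phosphorylates p53, had a mean of 4798.1 ± 204.5 normalized counts without PBRM1 and 5592.4 ± 30.3 with it (SD, n = 3), a log2 fold change of 0.22 (limma adjusted p = 1.88e-05). USP7, which removes ubiquitin from p53 and MDM2, had a log2 fold change of 0.20 (limma adjusted p = 2.96e-04), and the acetyltransferase EP300 had 0.17 (limma adjusted p = 0.00381). The replication-stress kinase ATR fell by 0.24 on the log2 scale (limma adjusted p = 0.00389), and the ribosomal protein gene RPL11, whose product binds MDM2, fell by 0.15 (limma adjusted p = 0.00298). The adjusted p of RPL11 was 0.0621 without Caki2+PBRM1 C. CDKN2A, which encodes the MDM2 inhibitor ARF, was at 0 in every sample.

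Among 60 other p53 targets, 55 were tested, of which 14 were upregulated and 9 downregulated. Their median log2 fold change was -0.02. Over all tested genes 16.2% were upregulated and 13.0% downregulated. Both directions were seen in each group of roles. Of 10 tested genes of growth arrest and feedback, CDKN1A alone was upregulated and BTG2 alone downregulated, and 8 did not pass. CDKN1A, which encodes the cyclin-dependent kinase inhibitor p21, rose from a mean of 1397.2 ± 32.6 normalized counts to 1620.1 ± 26.4 (SD, n = 3), a log2 fold change of 0.21 (limma adjusted p = 3.41e-04). BTG2, an antiproliferative cofactor of mRNA decay, fell by 0.22 (limma adjusted p = 0.0393). The call of BTG2 held in 2 of 6 fits without a replicate, with an adjusted p of 0.162 in the fit lacking Caki2+PBRM1 C, and its adjusted p with DESeq2 was 0.153.

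Of 12 tested cell death genes 3 were upregulated and 3 downregulated, beside 16.2% and 13.0% of all tested genes. PERP, a membrane protein of epithelial junctions, rose from a mean of 10576.3 ± 276.9 normalized counts to 13052.5 ± 207.7 (SD, n = 3), a log2 fold change of 0.30 (limma adjusted p = 6.66e-09). SPATA18, which acts in mitochondrial quality control, had 0.45 (limma adjusted p = 0.00464) and APAF1, the scaffold of the apoptosome, had 0.20 (limma adjusted p = 0.0247). The nuclease gene AEN fell by 0.28 (limma adjusted p = 0.00128) and the autophagy gene DRAM1 by 0.14 (limma adjusted p = 0.0204). The third downregulated gene, TNFRSF10A, encodes a death receptor and overlapped between the groups. Without Caki2+Vector B the log2 fold change of SPATA18 was 0.29 (limma adjusted p = 0.0551) and the adjusted p of APAF1 was 0.134. That of DRAM1 was 0.0861 without Caki2+Vector C and that of TNFRSF10A was 0.274 without Caki2+PBRM1 B. The calls of APAF1 and DRAM1 held in 2 of 6 fits without a replicate, and that of TNFRSF10A in 3. With DESeq2 on the recovered reads the adjusted p was 0.108 for APAF1, 0.064 for DRAM1 and 0.167 for TNFRSF10A.

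Of 13 tested genes of repair and metabolism, 1 was upregulated and 3 were downregulated, beside 16.2% and 13.0% of all tested genes. The lysosomal fucosidase gene FUCA1 had a log2 fold change of 0.43 (limma adjusted p = 3.73e-04). ALDH4A1, of proline breakdown, fell by 0.40 (limma adjusted p = 0.00254), the translesion polymerase gene POLH fell by 0.17 (limma adjusted p = 0.0215), and PRKAB1, a subunit of AMPK, also fell by 0.17 (limma adjusted p = 0.0375). The adjusted p of POLH was 0.0944 without Caki2+PBRM1 C and that of PRKAB1 was 0.180 without Caki2+PBRM1 B, and with DESeq2 they were 0.0864 and 0.125. Among 20 tested targets with other roles, 9 were upregulated and 2 downregulated. THBS1, a secreted matrix glycoprotein, rose from a mean of 882.8 ± 23.5 normalized counts to 2074.9 ± 68.8 (SD, n = 3), a log2 fold change of 1.23 (limma adjusted p = 8.07e-19). TLR3, a receptor for double-stranded RNA, had 0.79 (limma adjusted p = 8.79e-07) and KIAA0247 had 0.53 (limma adjusted p = 2.35e-04). TRIAP1 and PTP4A1 each fell by 0.24 (limma adjusted p = 0.00509 and 4.73e-05).

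Some members are also controlled by ATF4 (SESN2 and GDF15) or by FOXO factors (SESN1), so other targets of these factors were set beside them. Of 16 tested ATF4 genes 3 were upregulated and 1 downregulated, beside 16.2% and 13.0% of all tested genes. The median log2 fold change of the ATF4 genes was 0.03. PHGDH, of serine synthesis, had 0.98 (limma adjusted p = 3.34e-09), the cystine transporter gene SLC7A11 had 0.17 (limma adjusted p = 1.60e-04), and the pseudokinase gene TRIB3 fell by 0.28 (limma adjusted p = 8.25e-05). Of 13 tested FOXO targets 8 were upregulated and 2 downregulated, with a median of 0.33. TXNIP, an inhibitor of thioredoxin and glucose uptake, rose from a mean of 880.0 ± 27.4 normalized counts to 1759.3 ± 12.4 (SD, n = 3), a log2 fold change of 1.00 (limma adjusted p = 9.59e-17). FBXO32 had 0.72 (limma adjusted p = 7.46e-04) and CITED2 had 0.69 (limma adjusted p = 2.60e-10), whereas the insulin receptor gene INSR fell by 1.04 (limma adjusted p = 3.69e-08) and SOD2 by 0.25 (limma adjusted p = 5.72e-04). The part of these factors in the changes of the 10 genes was not tested.

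**Figure D4:**
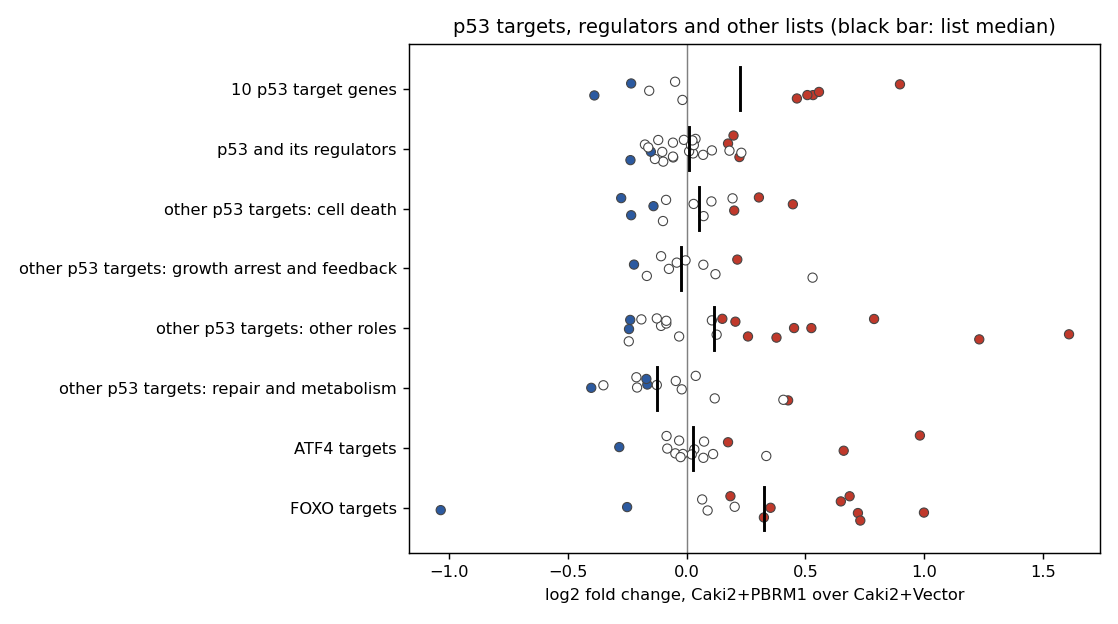
Log2 fold change (horizontal axis) of every tested gene of each list, 1 point per gene, red where upregulated, blue where downregulated and open where the adjusted p was 0.05 or more; black bars mark list medians. The 10 p53 target genes have a median of 0.22 with 5 red and 2 blue points, and the other p53 targets spread to both sides of 0 in each group of roles.

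The calls of the upregulated genes and of DDB2 did not depend on the tool. With edgeR's quasi-likelihood test on the recovered reads 5 members were upregulated and 2 downregulated (over all genes 16.5% and 13.8%, together 30.3%). With DESeq2 on the same reads 5 were upregulated and 1 downregulated (over all genes 11.2% and 7.95%, together 19.2%), SESN2 being the gene lost. With each replicate left out in turn, the lowest and highest log2 fold changes were 0.88 and 0.91 for ZMAT3, 0.49 and 0.61 for TP53INP1, 0.39 and 0.61 for GDF15, 0.47 and 0.55 for RRM2B, 0.43 and 0.49 for TP53I3, and -0.42 and -0.35 for DDB2.

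**Figure D5:**
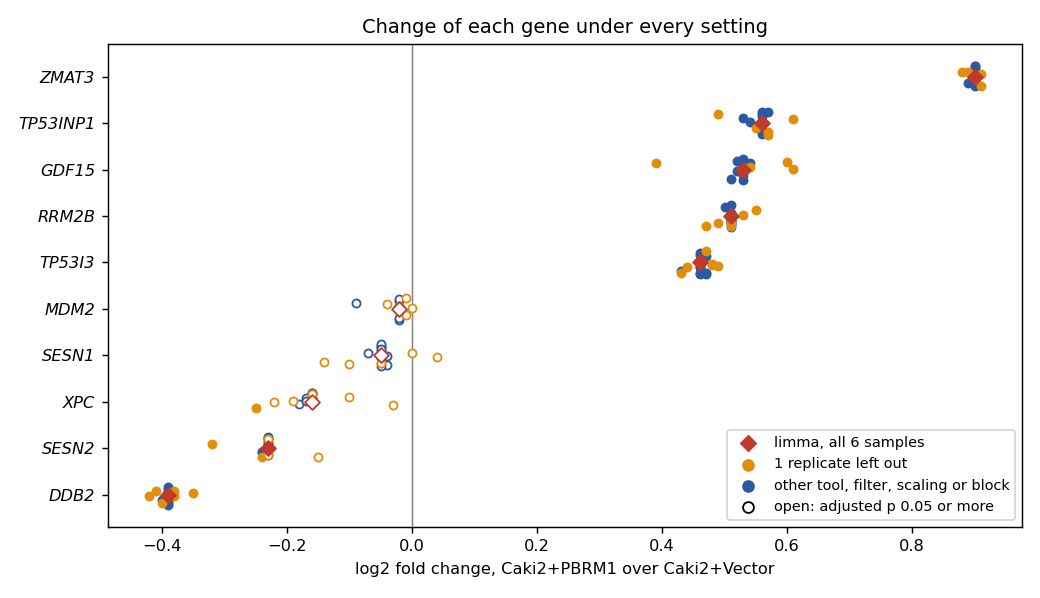
Log2 fold change (horizontal axis) of each of the 10 genes under every setting: limma on all 6 samples (red diamond), fits without 1 replicate (orange) and other tools, filters, scalings or the replicate block (blue), open where the adjusted p was 0.05 or more. The 5 upregulated genes and DDB2 stay filled throughout, SESN2 holds filled and open points, and MDM2 and SESN1 lie around 0 with open points only.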

How the data were processed

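Poly(A) RNA of 6 samples was sequenced. The authors removed adapters, poor reads and rRNA reads, aligned the rest to hg19 with STAR, counted reads on genes of the UCSC annotation with htseq-count and normalized with DESeq2 (versions not given in the sources used here). The deposited values are a signal, namely reads per gene divided by 1 size factor per sample (0.834 to 1.191) and not by gene length. Whole reads were recovered from the steps between values (100% of values within 0.01 of a whole read).

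The filter kept genes reaching 10 normalized counts in 3 or more samples. Their values, as log2(normalized count + 1), were tested with limma 3.58.1 (trend, robust) in R 4.3.3, with Benjamini-Hochberg adjustment over 13303 genes and an adjusted p under 0.05. On the recovered reads, edgeR 4.0.16 called 4030 genes and DESeq2 1.42.0 called 2553. The scripts were tested on simulated data. Over tested genes the SE had a median of 0.083 on the log2 scale, and arithmetic outside R used Python 3.11.15 with scipy 1.17.1. Single genes also had an exact permutation test of the difference of means on the normalized counts.

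The members and lists were chosen with earlier results of these data known. Named were the members, PBRM1, MDM4 and CDKN1A, and from each role or list up to 3 upregulated and 3 downregulated genes with the largest change, no overlap and 50 or more normalized counts on average where higher; CDKN2A, TNFRSF10A and the exon-sharing genes were added after their values were seen. The result of 1 further gene under this rule is not reported here. The markers named were fixed with the lists. Positions, transcript lengths and shared exons come from GENCODE v44 on GRCh37, matched by symbol (91.0% of tested genes). The UCSC gene models used for counting may differ from these.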

Additional observations from a re-analysis of the deposited data

How the results depend on the processing

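The number of upregulated members was 5 under all alternatives: other tools, pseudocounts of 0.5 and 4, no filter, a filter of 10 in every sample, quantile or TMM scaling, the replicate block, an adjusted p under 0.01, and fits without 1 replicate. Downregulated members numbered 1 with DESeq2 and at 0.01, and 1 to 2 in the fits without 1 replicate (1 without Caki2+PBRM1 A, Caki2+PBRM1 C or Caki2+Vector B; without Caki2+Vector C, XPC was called in place of SESN2). The upregulated count over all genes was 2152, but 1496 both with DESeq2 and at 0.01. Without 1 replicate it ranged from 1597 (without Caki2+PBRM1 C) to 2251 (without Caki2+Vector A). Over all genes 1734 were downregulated, but 1057 with DESeq2 and 1025 at 0.01. In the fits without 1 replicate this count ranged from 1201 (without Caki2+PBRM1 C) to 1903 (without Caki2+Vector A). Of the other p53 targets, 9 were downregulated, but 4 with DESeq2, 4 at 0.01 and 6 without the filter on low counts. In the fits without 1 replicate 5 to 12 were (5 without Caki2+PBRM1 A or C, 6 without Caki2+PBRM1 B or Caki2+Vector C). The 12 came without Caki2+Vector A, where 16 other p53 targets were upregulated, against 14 with all samples. Downregulated regulators numbered 1 to 4 in these fits, with 1 without Caki2+PBRM1 C and 4 without Caki2+Vector B. Without 1 replicate the log2 fold change of MDM2 ranged from -0.04 to 0.00 and that of SESN1 from -0.14 to 0.04, the signs turning without Caki2+Vector C for MDM2 and without Caki2+PBRM1 A or Caki2+Vector B (0.00) for SESN1, never past the threshold. Of 160 member values under the alternatives, 151 kept their direction and side of the threshold. The cause of these moves was not tested.

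With the replicate letter as a replicate block, 5 members were upregulated and 2 downregulated, as without it. Of the regulators 3 were upregulated and 2 downregulated, and of the other p53 targets 15 were upregulated and 10 downregulated. Over all genes 2249 were upregulated and 1858 downregulated with the block, beside 2152 and 1734 without it. Deviations from the group mean of samples with the same letter had correlations across genes of 0.006, -0.008 and 0.014. For samples with different letters they ranged from -0.024 to 0.017. No deviation shared by letter was seen, but these values cannot show whether samples of the same letter were handled together. Below the filter were 12066 genes, and limited depth and lack of expression were not told apart there.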
